A study of Danio rerio with 57 samples.

Results

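The change in H3K9me3 between 3.5 and 4 h post fertilisation (hpf) was followed in zebrafish embryos by comparing the list of marked regions at 4 hpf with the list at 3.5 hpf. Regions on chromosomes 1 to 25 were taken from each list by position, and regions of a list that touched were merged. This left 47140 regions at 4 hpf and 39907 at 3.5 hpf, or 87047 of the 174771 merged regions in the 6 lists of the series. These data come from CUT&RUN, in which an antibody tethers a nuclease that cuts out the DNA around marked nucleosomes, on whole embryos of genotype AB. The time course holds 3 H3K9me3 libraries at 4 hpf and 3 at 3.5 hpf, all with the Abcam antibody and with E. coli DNA spiked in, beside 2 and 1 IgG libraries. A single list stands for each time, with no record in these sources of which libraries entered it. No list for IgG was analysed here, so no background stands beside the regions. No spread between embryos can therefore be given, no test over samples was possible, and every difference below compares 1 pooled list with 1 other. Read depth is unknown, so a longer list at 4 hpf and deeper sequencing cannot be told apart.

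H3K9me3 is the trimethylation of lysine 9 on histone H3 and marks constitutive heterochromatin, above all repeats and transposons. Proteins of the HP1 family bind the mark and recruit the enzymes that write it, a loop through which it can pass from a marked nucleosome to its neighbours. Embryos at both times are blastulae, in which the zygotic genome has become active and heterochromatin is still being built. A marked place can change in several ways over such a step. It can be lost, it can widen or narrow, it can fuse with a neighbour, or a place can be marked where none was before.

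Most regions present at 3.5 hpf were found again at 4 hpf, and for most of those the later region reached beyond the earlier bounds at 1 end at least. Of the 39907 regions at 3.5 hpf, 33302 (83.4%) had at least 1 bp covered at 4 hpf and 6605 (16.6%) had none. The 95% Wilson interval of the kept share was 83.1% to 83.8%; it covers the counting of regions only, not variation between embryos. Regions are called widened where an end lay beyond the 3.5 hpf bounds and no other region was met, even where the other end drew in. These numbered 26324 (66.0%), and some of them were narrower at 4 hpf. A further 2827 (7.08%) fused, that is, shared their 4 hpf region with another 3.5 hpf region. The remaining 4151 lay over 4 hpf regions that nowhere reached beyond them. Splitting was rare, since 376 regions at 3.5 hpf lay over 2 or more 4 hpf regions, at most 3.

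Seen from 4 hpf, 14919 of 47140 regions (31.6%) overlapped no earlier region and were new. Those grown from a single earlier region numbered 26474 (56.2%), and 1362 (2.89%) were fused from 2 or more. The other 4385 lay wholly within an earlier region. Few new or lost regions had a deposited p-value below 0.05, a value for which these sources name no test. Of new regions 252 (1.69%) did, against 13.8% of all regions at 4 hpf. Of lost regions 103 (1.56%) did, against 13.1% of all regions at 3.5 hpf. Under 1 kb the median deposited p-value was 0.741 in new and 0.588 in other regions at 4 hpf. At 3.5 hpf it was 0.808 in lost and 0.666 in kept regions under 1 kb. Covered length was 89.8 Mb at 4 hpf, against 71.1 Mb at 3.5 hpf, a ratio of 1.26, while the ratio of region numbers was 1.18. The share of the chromosomes under the mark was 6.68% at 4 hpf and 5.29% at 3.5 hpf. The 4 hpf list had a median width of 1081 bp, against 1026 bp in the 3.5 hpf list.

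Gains of marked DNA were 2.98 times losses with the lists as deposited. In all 28.2 Mb were covered at 4 hpf only, 9.48 Mb at 3.5 hpf only, and 61.6 Mb at both times. The balance depended on the regions used. It turned round when the 4 hpf list was reduced to the size of the 3.5 hpf list by p-value, with 22.2 Mb gained and 35.4 Mb lost, but not when it was reduced by signal, with 25.3 Mb gained and 10.3 Mb lost. Such a cut of the 4 hpf list alone can only lower the gain and raise the loss. The p-value ranking also placed many of the widest regions last. Gains were 1.32 times losses among regions named primary, a class of the deposited names that no header explains, and 1.25 times among the 50% of each list with the lowest p-values. Other choices raised the ratio, to 3.76 with regions of at least 1 kb and 3.84 with the 50% of highest signal in each list. Without chromosome 4 it was 2.82. Flanks of regions grown from a single earlier one supplied 13.5 Mb of the gain (48.0%), and new regions 12.1 Mb (42.7%). Gaps filled inside fused regions added 1.64 Mb (5.81%), and the outer flanks of fused regions 0.981 Mb (3.48%). Of the length lost, 4.91 Mb (51.7%) came from regions that disappeared whole and 4.58 Mb (48.3%) was trimmed from regions that were kept. With regions named primary alone in both lists, 25.7% of the gain lay in regions overlapping an earlier one, against 57.3% with all regions. Of primary regions at 3.5 hpf, 26.3% had no primary region over them at 4 hpf, but 97.7% were covered by a 4 hpf region of either name.

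By number of regions, loss and new marking were largely matters of narrow ones. Below 1 kb, 5760 of 19516 regions at 3.5 hpf (29.5%) were lost. The lost share was 6.25% from 1 to 2 kb, 2.42% from 2 to 5 kb, 1.48% from 5 to 10 kb and 1.61% (6 of 373) at 10 kb and over. The median width of lost regions was 500 bp and that of kept regions 1232 bp. New regions showed the same gradient at 4 hpf. They made up 54.5% of the 22001 regions below 1 kb, 2282 of the 11997 from 1 to 2 kb, 6.39% from 2 to 5 kb, 0.899% from 5 to 10 kb and 0.979% at 10 kb and over. Regions of exactly 500 bp, a width that recurs in every list, stood out further. Of these, 1913 of 2860 (66.9%) at 4 hpf were new, and 1144 of 2872 (39.8%) at 3.5 hpf were lost. Among the other regions below 1 kb the new share was 52.7% and the lost share 27.7%. By length, regions under 1 kb held 7.05 of the 12.1 Mb in new regions and 3.21 of the 4.91 Mb in lost ones. A narrow region also misses the other list more easily, and the part of width in these gradients was not tested.

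**Figure D1:**
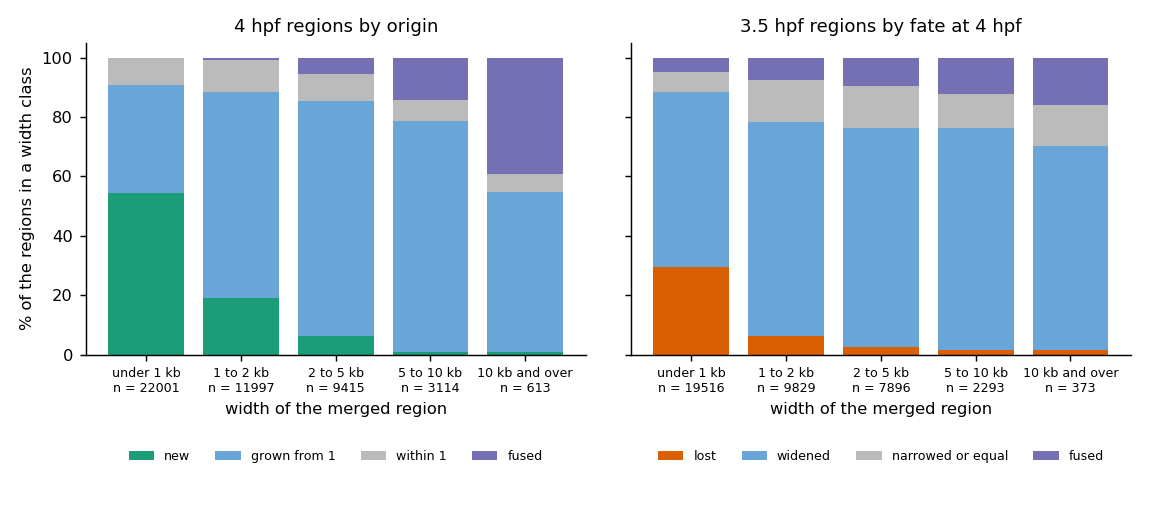
Shares of 4 hpf regions by origin (left) and of 3.5 hpf regions by fate (right), in % of the regions of each width class, with the number of regions under each bar. New regions take 54.5% and lost regions 29.5% of the narrowest class and under 2% of regions at least 5 kb wide, while the fused share grows with width.

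Width classes grew unevenly. Regions under 1 kb numbered 22001 at 4 hpf and 19516 at 3.5 hpf, a ratio of 1.13. The ratio was 1.22 from 1 to 2 kb, 1.19 from 2 to 5 kb and 1.36 from 5 to 10 kb. At 10 kb and over there were 613 regions at 4 hpf and 373 at 3.5 hpf, a ratio of 1.64, and their summed length was 8.83 Mb against 5.23 Mb. The widest class held 9.83% of the marked length at 4 hpf and 7.35% at 3.5 hpf. Fusion was prominent there: 240 of the 613 widest regions at 4 hpf (39.2%) joined 2 or more earlier regions, against 0.105% of those under 1 kb. A wide region has more room to overlap several earlier ones, and the part of width in this gradient was not tested.

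The ends of single regions moved outward by short distances. For 30176 regions, 1 region at 3.5 hpf matched 1 at 4 hpf and the shift of each end could be read. The median shift of the 60352 ends was 58 bp outward, with quartiles of 39 bp inward and 227 bp outward. Left ends and right ends moved alike, with medians of 58 and 59 bp. Outward shifts outnumbered inward ones at every size counted. Of all ends, 65.1% lay further out and 34.7% further in. By more than 500 bp, 13.1% lay further out and 3.32% further in. Both ends lay further out in 13188 regions (43.7%), both further in in 4057 (13.4%), and in 42.4% an end lay further out and the other further in. The matched regions were wider at 4 hpf, with a median of 1464 bp, than at 3.5 hpf, with 1196 bp.

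**Figure D2:**
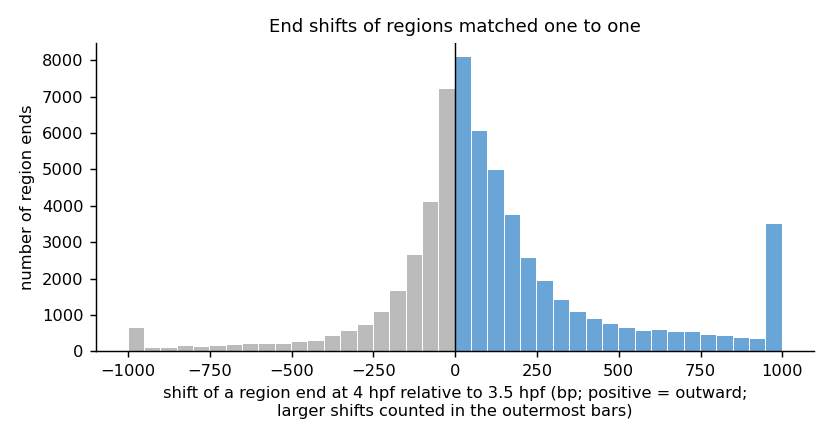
Number of region ends by their shift at 4 hpf relative to 3.5 hpf, in bins of 50 bp, for the 30176 regions matched singly; blue bars are outward or unmoved ends and grey bars inward ones, with larger shifts in the outermost bars. The distribution centres near 0, has a median of 58 bp outward and a longer outward tail.

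The absolute gain of a matched region was larger from 2 kb up than below, while its proportion was smaller. The median gain was 148 bp below 1 kb, 121 bp from 1 to 2 kb, 190.5 bp from 2 to 5 kb, 230 bp from 5 to 10 kb and 197 bp at 10 kb and over. In proportion, the narrowest regions grew most, with a median width ratio of 1.24 below 1 kb and 1.01 at 10 kb and over. Regions at least 2 times as wide at 4 hpf numbered 2664 (8.83%), of which 1992 had been under 1 kb and none had reached 10 kb. Classes were set by the earlier width, which also divides the ratio, so a low earlier width by itself raises the ratio. Narrow regions also had less room to draw in. Ends moved inward by more than 500 bp in 0.544% of cases below 1 kb and in 7.53% at 10 kb and over. The part of these limits in the order of ratios and in the doubling was not tested. The unmarked DNA just outside a region gave another order. Within 1 kb of an end, 14.7% of unmarked DNA was newly covered beside regions under 1 kb, 20.5% beside those of 1 to 2 kb, 26.3% at 2 to 5 kb, 27.8% at 5 to 10 kb and 30.7% at 10 kb and over. Lost regions, most of them narrow, enter this second measure and not the first.

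New marking became sparser with distance from DNA already marked. Up to 1 kb from a 3.5 hpf region, 18.7% of the unmarked bases were covered at 4 hpf. The share was 2.94% from 1 to 5 kb, 1.07% from 5 to 20 kb, 0.572% from 20 to 100 kb and 0.347% beyond 100 kb. The nearest class holds 5.92% of the unmarked DNA and 49.9% of the gain. Bases in new regions alone followed the same order beyond the first kilobase, with 1.81% of unmarked DNA covered by them from 1 to 5 kb, 1.06% from 5 to 20 kb, 0.572% from 20 to 100 kb and 0.347% beyond. Up to 1 kb the value was 0.657%, since gains there mostly join the earlier region and count as its extension.

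**Figure D3:**
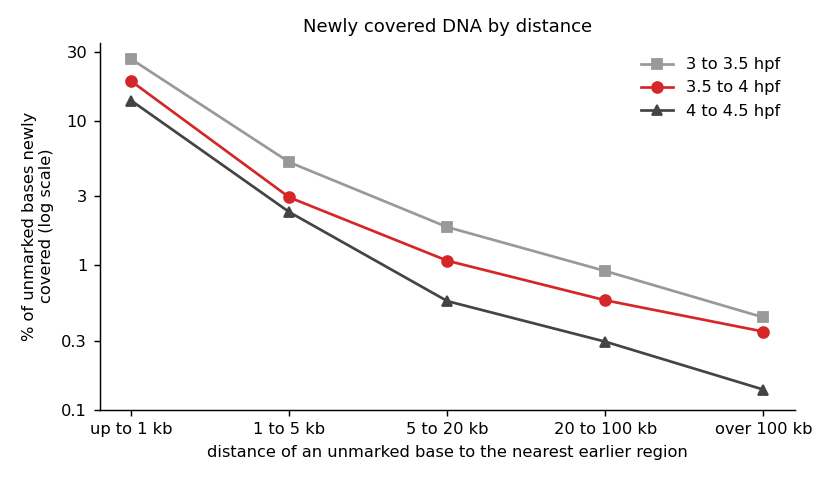
Share of unmarked bases newly covered in the later list, in % on a log axis, by distance to the nearest region of the earlier list, for 3 successive steps. In the 3.5 to 4 hpf step the share is 18.7% up to 1 kb and 0.347% beyond 100 kb, and it lies between the neighbouring steps in all 5 distance classes.

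The same order was found in the neighbouring steps. From 3 to 3.5 hpf the shares were 26.6%, 5.15%, 1.83%, 0.911% and 0.436% from the nearest to the farthest class, and from 4 to 4.5 hpf they were 13.7%, 2.33%, 0.564%, 0.296% and 0.138%. These steps share a list with the 3.5 to 4 hpf step, so the values stand side by side without a test. Kept shares of the 3 steps were 74.8%, 83.4% and 59.2%, and the new share of the later list was 48.0%, 31.6% and 17.0%. Fused regions made up 3.60%, 2.89% and 4.47% of the later lists. Length lost between lists was 9.60 Mb from 3 to 3.5 hpf, 9.48 Mb from 3.5 to 4 hpf and 24.5 Mb from 4 to 4.5 hpf, or 21.5%, 13.3% and 27.2% of the earlier list. The 4.5 hpf list is uneven across chromosomes. Its covered length was 1.19 to 1.33 times that at 4 hpf on chromosomes 1 and 10 to 13, 0.569 times on chromosome 14 and 0.884 to 1.08 times on the other 19. Without chromosomes 1 and 10 to 14 the kept share from 4 to 4.5 hpf was 60.3%, the new share 16.0%, the fused share 3.14% and the lost length 25.9%. That fused share lay below the 3.60% of the 3 to 3.5 hpf step, which was taken over all 25 chromosomes. The order was not compared on the same chromosomes. The 3.5 to 4 hpf step had the highest kept share and the smallest loss of the 3, but list lengths differed between the steps. The 4.5 hpf list held 0.678 times as many regions as the 4 hpf list. From 3.5 to 4 hpf this ratio was 1.18, and from 3 to 3.5 hpf it was 1.36. A shorter later list can lower the kept share and raise the loss, and the part of list length was not tested.

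Most new regions lay more than 5 kb from earlier ones, as did most unmarked DNA. Their median distance to the nearest 3.5 hpf region was 7769 bp. Within 1 kb lay 1162 (7.79%), from 1 to 5 kb 4595 (30.8%), from 5 to 20 kb 5337 (35.8%), from 20 to 100 kb 3472 (23.3%) and beyond 100 kb 353 (2.37%). Of unmarked DNA, counted by base, 5.92%, 17.5%, 33.8%, 37.0% and 5.74% lay in the same classes. New regions thus lay nearer to earlier ones than unmarked DNA did. New regions were wider near earlier ones, with a median of 706.5 bp up to 1 kb and 563 bp beyond 100 kb. Lost regions lay at nearly the same distances from regions that were kept, with a median of 7720 bp and 38.9% within 5 kb, against 38.6% of new regions within 5 kb of a 3.5 hpf region. Kept regions lay at a median of 7397.5 bp from the next kept one, with 40.2% within 5 kb. By the same measure, to kept regions only, new regions lay further off, with a median distance of 9757 bp and 32.4% within 5 kb. The 38.6% of new regions within 5 kb of a 3.5 hpf region depended on which regions were used: the share was 24.9% with regions of at least 1 kb, 24.4% with the 50% of lowest p-values in each list, 25.6% with the 50% of highest signal and 16.2% with regions named primary.

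Gaps between neighbouring regions closed where they were short. Of 39882 gaps at 3.5 hpf, 1471 (3.69%) were covered whole at 4 hpf. Gaps up to 1 kb closed in 811 of 1863 cases (43.5%), gaps of 1 to 5 kb in 647 of 9175 (7.05%) and gaps of 5 to 20 kb in 13 of 12983. None of the 12952 gaps of 20 to 100 kb or of the 2909 wider ones closed. Within the first class, the closed share was 63.0% for gaps up to 250 bp, 62.3% for those above 250 and up to 500 bp, 48.6% up to 750 bp and 28.6% up to 1000 bp. Most fusions were of pairs: 1268 of 1362 fused regions joined 2 earlier ones, 84 joined 3, 9 joined 4 and 1 joined 7. Fused regions had a median width of 5074 bp at 4 hpf. With regions named primary alone, 29 of 14929 regions at 4 hpf (0.194%) were fused, and with the 50% of lowest p-values in each list 172 of 23598 (0.729%). With the 50% of highest signal, 762 of 23000 (3.31%) were.

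The region that joined the most earlier ones lay on chromosome 4, and 9 regions tied behind it with 4 each. Of these 9, only the first 4 by chromosome and position are named here. Their place on chromosomes 4 and 5 follows from that rule. Positions here and below are those of the deposited lists, whose genome build these sources do not name, and no gene annotation was set beside them. The largest, at chromosome 4, 28726414 to 28772077, was 45.7 kb wide at 4 hpf and joined 7 regions that together measured 29.2 kb at 3.5 hpf. In the order 2, 2.5, 3 and 3.5 hpf the lists covered 2.44%, 1.88%, 40.4% and 63.9% of this span, and the 4.5 hpf list covered 99.95%. Its neighbour at 28774110 to 28799216 joined 4 regions and was 25.1 kb wide, with 63.5% covered at 3.5 hpf and 49.7% at 3 hpf. These neighbours were already marked over most of their length at 3.5 hpf, and the next was not. On the same chromosome, 51993402 to 52008010 joined 4 regions into 14.6 kb, of which 36.5% was covered at 3.5 hpf, 9.75% at 3 hpf and none before. The region at 72003854 to 72024511 joined 4 into 20.7 kb from 67.3% covered at 3.5 hpf. The last of the 5, at chromosome 5, 70597043 to 70623549, joined 4 into 26.5 kb from 63.3%. At 4.5 hpf the first 3 of these spans were covered over at least 99.95% and the last 2 over 59.1% and 54.8%.

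The largest growth of a single region was at chromosome 22, 7823697 to 7836923, where a region of 2661 bp at 3.5 hpf became one of 13227 bp at 4 hpf. At chromosome 4, 36929469 to 36941204, the earlier region measured 1403 bp and the later one 11736 bp. At chromosome 8, 39457305 to 39467436, a region of 500 bp was followed by one of 10132 bp. The other two of the 5 were at chromosome 4, 72252941 to 72264537, with 11597 bp at 4 hpf and 2252 bp at 3.5 hpf, and at chromosome 3, 50769710 to 50780758, with 11049 bp at 4 hpf and 1903 bp at 3.5 hpf. All 5 were covered over 98.5% to 100% at 4.5 hpf, a list that played no part in choosing them. At 3 hpf they were covered over 0% to 35.5%.

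The widest gap covered whole was at chromosome 4, 39427976 to 39439680. It measured 11.7 kb, was covered in none of the 4 lists up to 3.5 hpf, and lay inside a 16.3 kb region at 4 hpf. The next, at chromosome 3, 3042698 to 3049900, was 7.20 kb wide and behaved otherwise: the 3 hpf list covered 92.3% of it, the 3.5 hpf list none and the 4 hpf list all. The gaps at chromosome 6, 41067121 to 41073914, chromosome 8, 38978727 to 38985288, and chromosome 5, 45142470 to 45148934, measured 6.79, 6.56 and 6.46 kb and were covered over 7.58% to 12.2% at 3 hpf. At 4.5 hpf the 5 gaps were covered over 61.7% to 100%.

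The 5 widest new regions had all been listed in part before and were missing from the 3.5 hpf list. At chromosome 12, 12192292 to 12220059, a 27.8 kb region at 4 hpf had no base covered at 3.5 hpf, although the 2, 2.5 and 3 hpf lists covered 14.8%, 76.2% and 89.8% of it and the 4.5 hpf list all of it. At chromosome 10, 12020090 to 12041663, a 21.6 kb region was covered over 26.7%, 42.6% and 69.4% at 2, 2.5 and 3 hpf and over 98.2% at 4.5 hpf. The other 3 of the 5 widest lay at chromosome 9, 19971881 to 19984637, chromosome 7, 74209665 to 74220974, and chromosome 4, 68526176 to 68537440. They were 12.8, 11.3 and 11.3 kb wide and covered over 33.9% to 83.3% at 3 hpf. Return at 4 hpf was therefore not always kept. At 4.5 hpf the first of these 3 was not covered, and the other two were covered over 61.7% and 92.4%.

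The 5 widest lost regions had also been covered in part before 3.5 hpf. At chromosome 2, 14007061 to 14046962, the widest region of the whole 3.5 hpf list, 39.9 kb, had no base covered at 4 or 4.5 hpf. The 2, 2.5 and 3 hpf lists had covered 28.4%, 60.5% and 82.9% of it, and the nearest 4 hpf region lay 11.1 kb away. Its neighbour at 14052770 to 14065644, 12.9 kb wide, was covered over 53.4% at 3 hpf and was lost as well. The region at chromosome 7, 8082774 to 8096420, measured 13.6 kb. On chromosome 4, the regions at 30134071 to 30146739 and 26884113 to 26895870 measured 12.7 and 11.8 kb. None of the 5 was covered at 4.5 hpf. The deposited p-value, for which these sources name no test, lay between 0.983 and 0.986 for these 5 regions, near the highest in the list, 0.990. For the 5 widest new regions it was 0.979. Of regions at least 5 kb wide, a p-value of 0.95 or more was carried by 19 of 34 new and 2908 of 3693 other regions at 4 hpf, and by 29 of 40 lost and 1535 of 2626 kept regions at 3.5 hpf. Its part in the loss or return of these regions was not tested.

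Most chromosomes differed little in turnover, and chromosome 4 stood apart in fusion and in new marking. On the 24 chromosomes other than chromosome 4, the lost share of 3.5 hpf regions ran from 14.3% on chromosome 1 to 19.5% on chromosome 21, and the new share of 4 hpf regions from 29.3% on chromosome 25 to 32.9% on chromosome 6. Covered length at 4 hpf was 1.21 times (chromosome 17) to 1.28 times (chromosome 6) that at 3.5 hpf. Chromosome 4 lay inside the range for the lost share of regions, with 15.5%, and outside it for the rest. By length, chromosome 4 lost 11.1% of what was covered at 3.5 hpf, against 11.8% to 15.3% on the others. Its new share was 36.4%, its covered length 1.46 times that at 3.5 hpf, and 15.7% of its 3.5 hpf regions fused, against 3.83% to 8.40% on the others. The share of its 4 hpf regions fused from 2 or more was 6.01%, against 1.60% to 3.49%.

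**Figure D4:**
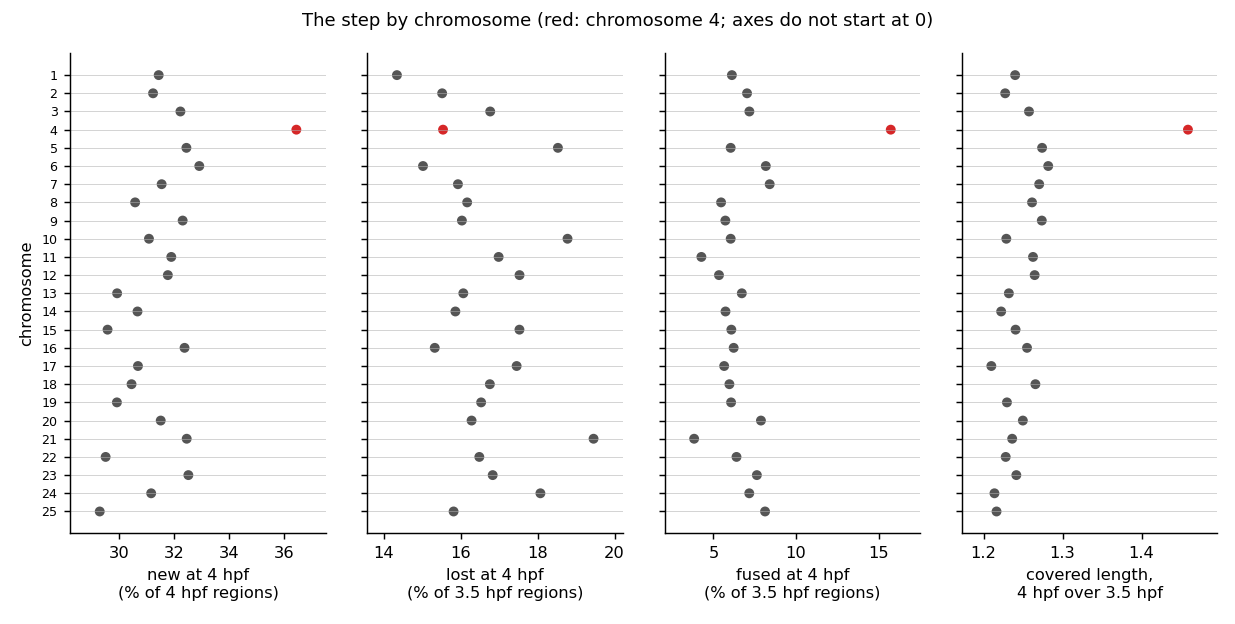
New share of 4 hpf regions, lost and fused shares of 3.5 hpf regions, and covered length at 4 hpf over that at 3.5 hpf, 1 point for each of 25 chromosomes; the axes do not start at 0. Chromosome 4, in red, lies at 36.4% new, 15.7% fused and a ratio of 1.46, outside the other 24, and at 15.5% lost within them.

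The difference lay on the long arm of chromosome 4, taken from 28 Mb on, which is known as the heterochromatic and repeat-rich arm of the zebrafish genome. Regions there were kept in 84.5% of cases, against 83.4% over all chromosomes, and 17.4% of them fused, against 7.08%. Before 28 Mb the fused share was 6.68%. Neighbours stand closer on this arm, where the median gap at 3.5 hpf was 8205 bp, against 13832 bp on the rest. Gaps of the same width class closed more often there. Exact gap widths and the widths of the bordering regions were not matched, and the part of spacing in fusion was not tested. Of gaps up to 1 kb, 94 of 158 (59.5%) closed on the arm and 717 of 1705 (42.1%) on the rest, and of gaps of 1 to 5 kb, 115 of 723 (15.9%) and 532 of 8452 (6.29%).

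Growth of single regions was larger on the arm as well. Their ends moved outward by a median of 164.5 bp on the arm (1505 regions) and 54 bp on the rest (28671 regions), and 29.2% of ends on the arm and 12.2% on the rest moved out by more than 500 bp. The median gain in width was 495 bp on the arm and 143 bp on the rest. In the narrowest class, under 1 kb, 15.2% of regions on the arm and 4.47% on the rest fused, while the lost shares were 29.2% and 29.5%. In total 15.1% of the arm was covered at 4 hpf and 10.1% at 3.5 hpf. The outer 1 Mb of the chromosomes had a new share of 25.2%, against 32.1% in the interiors, which include most of the arm. Covered length at the ends was 1.15 times that at 3.5 hpf, against 1.27 times. In percentage points the covered share rose more at the ends, by 1.87 against 1.37. Of 3.5 hpf regions, 7.38% fused at the ends and 7.06% in the interiors.

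Almost every 1 Mb window had more of its length under listed regions at 4 hpf, the longer list. These shares count listed length, not the amount of the mark. Of 1336 windows of 1 Mb, 1311 (98.1%) had a higher covered share at 4 hpf and 25 a lower one, with a median difference of 1.03 percentage points. All 50 windows of the chromosome 4 arm were higher, by a median of 4.82 points, against 1.00 point on the rest. The arm held 30 of the 50 windows with the largest differences and 3.74% of all windows. The largest difference was at chromosome 4, 72000001 to 73000000, with 32.8% of its length marked at 4 hpf against 23.8% at 3.5 hpf. Next came 51000001 to 52000000 (18.2% and 9.79%), 35000001 to 36000000 (15.9% and 7.54%) and 32000001 to 33000000 (20.5% and 12.6%) on the same arm. Outside chromosome 4 the window at chromosome 6, 22000001 to 23000000, followed, with 24.3% marked at 4 hpf against 16.5% at 3.5 hpf.

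Windows with less of their length marked at 4 hpf were few and the differences small. In the window at chromosome 7, 55000001 to 56000000, 3.15% was marked at 4 hpf against 4.16% at 3.5 hpf, the largest such difference. In the first 1 Mb of chromosome 10 the mark took up 13.1% at 4 hpf against 13.9% at 3.5 hpf. The window at chromosome 7, 8000001 to 9000000, which held 1 of the 5 widest lost regions, had 14.7% at 4 hpf against 15.5% at 3.5 hpf. Marked shares were 4.65% at 4 hpf against 5.14% at 3.5 hpf at chromosome 10, 21000001 to 22000000, and 1.91% against 2.33% at chromosome 8, 33000001 to 34000000. When windows were put into 5 equal classes by their coverage at 3 hpf, a list outside this step, the covered share at 4 hpf was 1.48 times that at 3.5 hpf in the least covered class and 1.20 times in the most covered. In absolute terms the order was opposite, with gains of 0.609 and 2.52 points.

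Places that were kept had been marked earlier and were found later more often than places that were lost or new. At 3 hpf, 13.4% of the regions new at 4 hpf were covered, 24.0% of the lost ones and 57.5% of the kept ones. At 2 hpf the values were 1.53%, 3.18% and 14.1%. At 4.5 hpf they were 37.2%, 21.6% and 69.6%, and without chromosomes 1 and 10 to 14 they were 36.7%, 20.2% and 71.5%. Wide regions are overlapped more easily, so the classes were also compared at like width. Among regions of 1 to 2 kb at 3.5 hpf, 36.3% of the lost and 72.4% of the kept were covered at 4.5 hpf. The contrast varied with width. It was 19.6% and 51.9% under 1 kb, and 37.7% and 89.4% from 2 to 5 kb. From 5 to 10 kb it was 11.8% (4 of 34) and 94.2%, and at 10 kb and over 0 of 6 lost and 97.3% of kept regions. Of regions of 1 to 2 kb at 4 hpf, 58.5% of the new and 70.5% of the grown or fused ones were covered at 4.5 hpf. At 3 hpf the difference between lost and kept regions was smaller at like width. From 1 to 2 kb, 48.9% of the lost and 63.7% of the kept were covered at 3 hpf, and from 5 to 10 kb 94.1% and 96.2%. For the new and the grown or fused regions of 1 to 2 kb, the 3 hpf values were 22.1% and 55.3%.

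**Figure D5:**
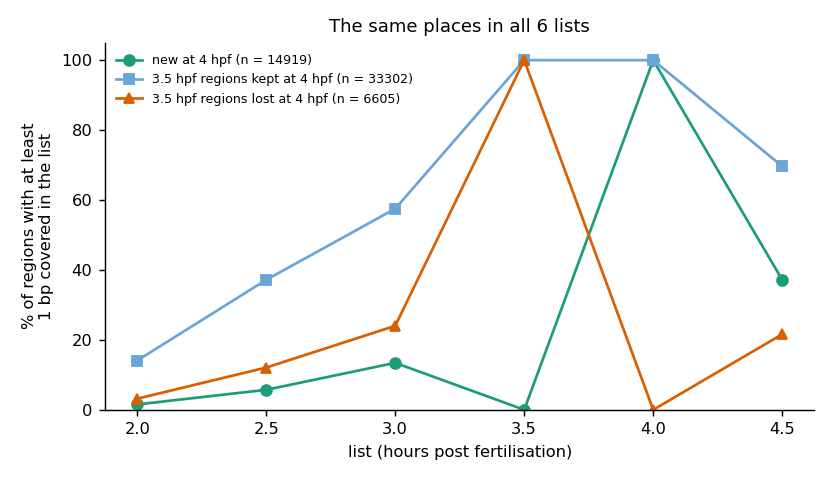
Share of regions with at least 1 bp covered in each of the 6 lists, by time in hours post fertilisation, for 14919 regions new at 4 hpf, 33302 regions of 3.5 hpf kept at 4 hpf and 6605 lost. The values of 0% and 100% at 3.5 and 4 hpf follow from the definitions; in the other 4 lists kept regions lie highest, at 69.6% at 4.5 hpf against 37.2% and 21.6%.

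A minority of new regions were returns. Of the 14919, 2587 (17.3%) overlapped a region at 2, 2.5 or 3 hpf, with a median width of 775 bp, and 12332 had been in no earlier list, with a median of 593 bp. At 4.5 hpf 38.5% of the returns and 36.9% of the others were covered. By distance to the nearest 3.5 hpf region, new regions up to 1 kb away stood highest, with 45.5% covered at 4.5 hpf, and the 4 classes farther out lay between 35.0% and 37.9%. For lost regions the share was lower in each class farther out, from 39.7% within 1 kb of a kept region to 15.7% beyond 100 kb. Lost regions at least 1 kb wide were also rarer farther out, at 19.8% within 1 kb and 3.27% beyond 100 kb. The part of width in this order was not tested. Of the 6605 lost regions, 3700 (56.0%) were in the 3.5 hpf list alone.

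The fates of kept regions differed in what came before and after. Fused regions were covered at 4.5 hpf in 83.0% of cases, widened ones in 69.7% and those that narrowed or stayed equal in 60.3%. At 3 hpf the order was opposite, with 55.3%, 56.7% and 64.3%. Below 1 kb, 72.8% of the fused, 52.1% of the widened and 34.2% of the narrowed or equal regions were covered at 4.5 hpf. Fused regions lay in wider 4 hpf regions, with a median of 5074 bp, and the part of that width was not tested.

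The deposited signal was lower in lost and new regions than in the others of their list, over regions of all widths. Its unit is unknown, so the signal was compared within a list only. At 4 hpf its median was 46.7 in new regions, 151 in regions grown from a single one and 461 in fused ones. At 3.5 hpf it was 39.6 in lost regions, 114.6 in widened and 177.5 in fused ones. The signal runs with width, and within the class under 1 kb the medians lay closer: 39.6 in new and 58.7 in other regions at 4 hpf, and 35.4 in lost and 53.5 in kept regions at 3.5 hpf. Among wide regions the order did not hold throughout. From 5 to 10 kb the medians at 3.5 hpf were 712 in 34 lost and 713 in 2259 kept regions, and at 10 kb and over 1654 in 6 lost and 1501 in 367 kept ones. At 4 hpf they were 493 in 28 new and 736 in 3086 other regions from 5 to 10 kb, and 1897 in 6 new and 1584 in 607 other regions at 10 kb and over. Regions named primary were kept in 97.7% of cases and those named secondary alone in 77.5%. The primary name was rare among narrow regions, which were lost more often. Under 1 kb it was carried by 1.73% of kept and 0.573% of lost regions, and from 2 to 5 kb by 80.5% and 66.0%. The kept share was 70.5% under 1 kb and 97.6% from 2 to 5 kb, and the part of width in the contrast of names was not tested. Of kept regions named primary at 3.5 hpf, 75.8% lay under a region named primary at 4 hpf, and of those named secondary 25.8% did.

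Reducing the 4 hpf list to as many regions as the 3.5 hpf list holds gave other values, which depended on the ranking. With the 42117 regions of lowest deposited p-value, 29.5% of 3.5 hpf regions were lost, against 16.6% with the full list, and 1.86% of 4 hpf regions were fused, against 2.89%. This ranking placed many of the widest regions last, so it changed which regions were compared as well as how many. With the same number ranked by signal, a choice made after seeing the data, 21.2% were lost and 3.41% of 4 hpf regions were fused. Taking regions from the 4 hpf list alone can only raise the lost share, so its rise under both rankings carries no information. Ranked by signal, 1359 of 39882 merged regions were fused, against 1362 of 47140 with the full list. The higher fused share there follows from the shorter list. Under the p-value ranking 752 were fused.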

How the data were processed

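H3K9me3 was measured by CUT&RUN in whole zebrafish embryos. The authors deposited 1 list of regions per time point, with no header. Per the submitters' processing notes, STAR, HOMER, Trim Galore, Picard, bedtools and SAMtools were used, without versions or roles. Not given in the sources used here were the genome build, the peak settings, the use of the spike-in and how replicates were combined. By their values, the deposited columns hold positions, a score, a signal of unknown unit and a p-value. The lists are named by time only, and those of 2.5 and 4.5 hpf were assigned to the time course, although another experiment of the series shares those times.

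Touching regions were merged, leaving 47140 of 49392 listed regions at 4 hpf and 39907 of 42117 at 3.5 hpf. An overlap of 1 bp counted. Chromosomes were taken to end at the furthest region in any list, and positions count from 1. No genome of the same build was at hand, so no gene or sequence is named. Scaffolds were left out of all comparisons. Named regions are the 5 widest new, lost and closed gaps, the 5 most joined, the 5 with the largest growth, and the 5 windows at each extreme. Ties went to the lower chromosome and position. The members, classes and these rules were chosen with earlier results of these data known. Alternatives were another overlap, merging, width, region class, list size, p-value or signal ranking and chromosome set. The signal rankings were added after seeing the data. No p-value was computed. The interval functions were tested on simulated data. Python 3.11.15, numpy 2.4.6, pandas 2.3.3 and scipy 1.17.1 were used.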

Additional observations from a re-analysis of the deposited data

Results flagged for a closer look

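Regions on unplaced scaffolds entered none of the comparisons above. The 4 hpf list held 1808 of them on 562 scaffolds, and the 3.5 hpf list held 1540 on 509 scaffolds. They are given as listed regions outside the main measurement; no control regions were analysed here, so these numbers do not show a level above background. After merging, 31.0% of those at 4 hpf were new and 84.4% of those at 3.5 hpf were kept, and covered length was 3.45 Mb in the 4 hpf list against 2.65 Mb in the 3.5 hpf list.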

How the results depend on the processing

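Of 45 values under 9 alternative settings, 12 stayed within the interval of the main value (for the extension share, within 1.5 times) and 33 moved. The interval covers only the counting of many regions and is narrow, 83.1% to 83.8% for the kept share. The band for the extension share was wide, 38.2% to 85.9%. The counts of 12 and 33 mix both rules and do not measure robustness. Main values were 83.4% kept, 31.6% new, 2.89% fused, 57.3% of gained length in extension and 38.6% of new regions within 5 kb. With an overlap of at least 50%, kept, new, fused and near shares were 80.5%, 32.8%, 2.50% and 40.8%. Kept here required 50% of the 3.5 hpf region, while new and fused used 50% of the shorter region of a pair. New regions under this setting could overlap an earlier one by less and count as near, unlike in the main value. With regions up to 1 kb apart merged they were 84.1%, 30.8%, 2.45% and 35.2%. With regions of at least 1 kb they were 90.5%, 28.5%, 2.69% and 24.9%. With regions named primary they were 73.7%, 41.8%, 0.194% and 16.2%, and extension was 25.7%. With the 50% of lowest p-values in each list they were 78.0%, 34.7%, 0.729% and 24.4%. With the 4 hpf list reduced by p-value to the size of the 3.5 hpf list, kept, fused and near shares were 70.5%, 1.86% and 40.0%, and length gained was 0.627 times that lost. A cut of the 4 hpf list alone can only lower the kept share and the gain and raise the loss. Ranking by signal was chosen after seeing the data. Kept, new, fused and near shares were then 78.8%, 23.9%, 3.41% and 41.5% at that size and 91.5%, 25.5%, 3.31% and 25.6% for the 50% of highest signal in each list. Without chromosome 4 the fused share was 2.66%. The causes were not tested. No paired analysis was possible because the lists carry no replicate, and no replicate could be left out for the same reason. Depth is unknown and limits every count.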
